A study of Mus musculus with 18 samples.

Results

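Hearts of C57BL/6 mouse embryos at stage E14.5, counted in embryonic days, were compared with hearts at E10.5, the span in which the heart tube is divided into chambers and the coronary vessels form. The comparison takes all 3 E14.5 libraries and all 4 E10.5 libraries of the study, 7 of its 18, as the labels assign them, and covers every gene measured. All embryos were wild type, hearts of both sexes were pooled, and the other 11 libraries come from E9.5, E12.5 and E16.5. The labels do not say how many hearts or litters went into a library, and the p-values therefore reflect only how far these libraries differ, part of which can be technical. The title of the study names cardiac development, the mevalonate pathway and the division of heart muscle cells.

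At E10.5 the heart is a looped tube of muscle lined by endocardium, with a swollen hyaluronan-rich matrix between the layers in the atrioventricular canal and outflow tract. Endocardial cells enter that matrix and turn into the mesenchyme of the cushions, which later fuse to septa and thin into valves, while the outflow tract is divided into aorta and pulmonary trunk. The epicardium spreads over the surface and gives rise to fibroblasts and mural cells, endothelial cells of the sinus venosus and endocardium build the coronary plexus, and the outer ventricular wall thickens into compact muscle. By E14.5 septation is nearly complete and the coronary plexus is joining the aorta. Whole hearts were measured, so that for every gene below more cells of a type and more RNA per cell cannot be told apart.

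Levels are in CPM, a library's counts scaled to a common total by trimmed means (TMM), and a gene was called when its adjusted p in edgeR's quasi-likelihood test was below 0.05. Library totals were 40355051, 42298365 and 30744015 counts at E14.5 and 44802875, 41248136, 37060489 and 37493245 at E10.5. A count of 0 allows up to 3 counts in a library, which is 0.0709 to 0.0976 CPM at E14.5 and 0.0670 to 0.0809 CPM at E10.5, for counting error only. Actc1, cardiac actin, stood at 7779.8 to 8452 CPM at E14.5 and 7695 to 8477 CPM at E10.5. E10.5 replicates 1 and 2 stood apart: 8 transcripts typical of activated macrophages summed to 0.603 and 0.800 CPM there, against 462 and 549.6 CPM in replicates 3 and 4 and 441 to 689 CPM at E14.5. Gh, the growth hormone transcript of the pituitary, had 106 to 218 CPM at E14.5 and 0, 0, 197 and 394 CPM in E10.5 replicates 1 to 4. Libraries of E9.5 and E12.5 with under 10 CPM of those 8 transcripts bring the number that stand apart to 5. Between E14.5 and E10.5, 8333 genes were called without those 5 and 9249 with standing apart as a term in the fit, against 9448 over all libraries. The fit without all 5 keeps E10.5 replicates 3 and 4, and "without replicates 1 and 2" means that fit below. In what follows, ± is the SE after a log2 fold change and the SD after a CPM (n = 3 at E14.5, 4 at E10.5, and for E12.5 also 4).

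Of 18885 genes tested, 9448 (50.0%) were called, 4744 (25.1%) higher and 4704 (24.9%) lower at E14.5. Large differences lay more often on the higher side: 1993 genes (10.6%) were called and at least 2-fold higher against 842 (4.46%) at least 2-fold lower, and 278 (1.47%) against 94 (0.498%) at 8-fold. The libraries of the stages did not overlap for 10254 genes (54.3%). The median log2 fold change of all genes was 0.01. Without replicates 1 and 2, 4205 genes were higher and 4128 lower. Of 9447 called genes that were also tested there, 7726 (81.8%) were called in the same direction and 0 changed sign. The counts of each list below are to be read against these 25.1% higher and 24.9% lower.

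**Figure D1:**
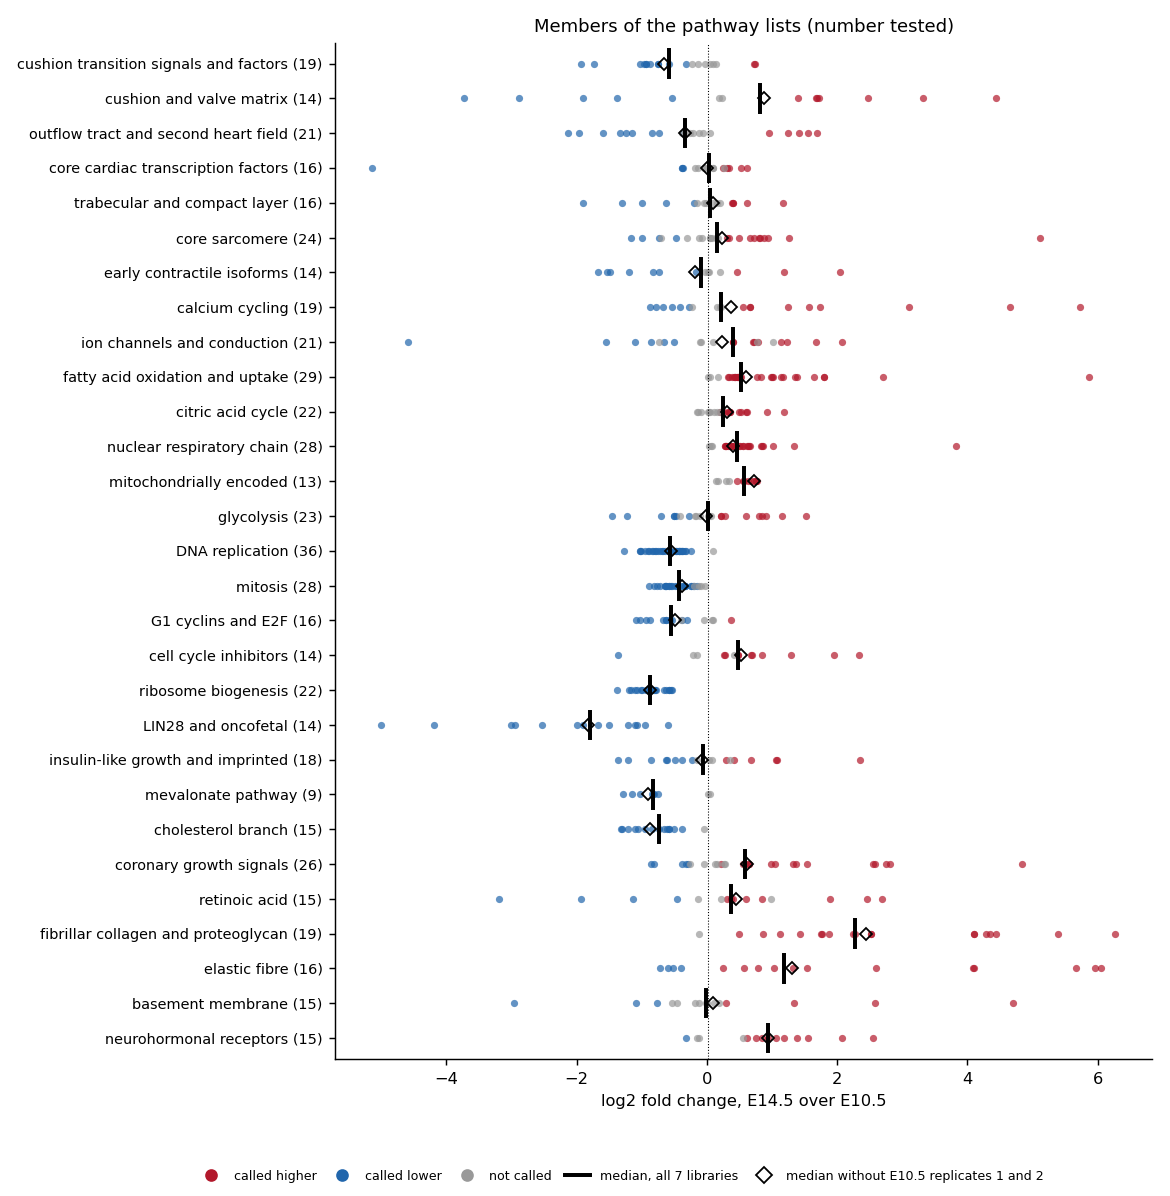
Log2 fold change of E14.5 over E10.5 (x axis) for each tested member of the 29 pathway lists, one list a row with its number of tested members. Points are red where called higher, blue where called lower and grey where not called, the bar is the list's median over all 7 libraries, the diamond the median without E10.5 replicates 1 and 2, and the dotted line the median of all genes at 0.01. Fibrillar collagen lies farthest right at a median of 2.28 and LIN28 and oncofetal genes farthest left at -1.79. Agtr2, with no count at E10.5, is not drawn.

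The signals and factors of the cushion transition were mostly lower at E14.5, with 11 of 19 members called lower, 2 higher and a median log2 fold change of -0.58 (-0.65 without replicates 1 and 2). Bmp2, the ligand by which the muscle of the canal triggers the transition, had 17.5, 15.6 and 17.6 CPM at E14.5, against 59.0, 56.5, 57.1 and 52.3 CPM at E10.5. The stages did not overlap, and all E14.5 libraries were far below the lowest E10.5 library, a log2 fold change of -1.74 ± 0.12 (SE, adjusted p = 9.83e-10). Msx2, a homeobox target of BMP signalling, had 4.12, 3.22 and 4.20 CPM at E14.5, against 13.99, 14.1, 15.96 and 14.8 CPM at E10.5, a log2 fold change of -1.94 ± 0.12 (SE, adjusted p = 1.59e-10). Tbx3, a repressor that keeps the canal from becoming chamber muscle, was lower at a log2 fold change of -1.02 ± 0.13 (adjusted p = 3.51e-06). Sox9, needed for the growth of cushion mesenchyme, had 23.3 ± 2.999 CPM at E14.5 and 42.9 ± 5.48 CPM at E10.5 and was lower at a log2 fold change of -0.88 ± 0.17 (adjusted p = 2.63e-04). Twist1, a factor of the early mesenchyme, was lower as well at a log2 fold change of -0.76 ± 0.19 (adjusted p = 0.003). Snai1, a repressor of cadherin that acts at the start of the transition, had 7.95 ± 1.20 CPM at E14.5 and 8.72 ± 0.701 CPM at E10.5 and was not called (log2 fold change -0.13 ± 0.11, adjusted p = 0.34). Members called higher were Snai2, a paralogue of Snai1, at a log2 fold change of 0.74 ± 0.12 (adjusted p = 3.34e-05), and Foxc1, a forkhead factor of endocardium and mesenchyme, at 0.72 ± 0.14 (adjusted p = 3.22e-04).

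The matrix of the cushions split in opposite directions, and of 14 members 7 were higher and 5 lower. The parts of the early jelly fell. Hapln1, the link protein that ties versican to hyaluronan, had 53.4, 39.6 and 29.2 CPM at E14.5, against 575, 559, 485 and 539 CPM at E10.5. No E14.5 library came near any E10.5 library, a log2 fold change of -3.73 ± 0.20 (SE, adjusted p = 2.34e-10). Has2, the enzyme that makes hyaluronan, had 9.503, 6.87 and 4.95 CPM at E14.5, against 57.6, 56.2, 46.0 and 50.9 CPM at E10.5, a log2 fold change of -2.88 ± 0.20 (SE, adjusted p = 3.24e-09). Vcan, the proteoglycan versican, was lower at a log2 fold change of -1.90 ± 0.19 (adjusted p = 2.56e-07). Genes of the later fibrous valve rose. Postn, periostin, had 566, 478 and 458 CPM at E14.5, against 100.4, 103, 74.8 and 82.2 CPM at E10.5, every E14.5 library above every E10.5 library (log2 fold change 2.48 ± 0.29, adjusted p = 6.08e-06). Prelp, a small proteoglycan of connective tissue, was higher at a log2 fold change of 4.44 ± 0.30 (adjusted p = 4.81e-10), Comp, a cartilage and tendon matrix protein, at 3.32 ± 0.31 (adjusted p = 4.44e-08), and Adamts5, a protease that cleaves versican, at 1.40 ± 0.12 (adjusted p = 2.07e-08). At E12.5 the mean of Hapln1 was 156 ± 9.01 CPM and that of Postn 384 ± 84.3 CPM, each between the other stages.

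Outflow tract and second heart field genes leaned lower, with 5 of 21 called higher, 9 lower and a median of -0.33. Among the first 4 members Tbx1 was called higher, at a low level in both stages. Hand1, a factor of the outer left ventricle and outflow tract, had 15.1, 11.8 and 15.8 CPM at E14.5, against 64.7, 64.5, 64.9 and 55.8 CPM at E10.5, a log2 fold change of -2.14 ± 0.14 (SE, adjusted p = 2.92e-10). Sema3c, the guidance signal that draws neural crest into the outflow tract, was lower at a log2 fold change of -1.25 ± 0.14 (adjusted p = 4.67e-07), with 24.5 ± 6.26 CPM at E14.5 and 58.3 ± 6.54 CPM at E10.5. Isl1, the marker of second heart field progenitors, stood at 3.07 ± 0.836 CPM at E14.5 and 6.81 ± 1.25 CPM at E10.5 and was lower at a log2 fold change of -1.15 ± 0.24 (adjusted p = 4.80e-04). Fgf10, a growth factor of the same field, was lower at a log2 fold change of -1.60 ± 0.24 (adjusted p = 1.43e-05), and Wnt5a, a non-canonical Wnt of the outflow tract, at -0.74 ± 0.10 (adjusted p = 7.03e-06). Rgs5, a regulator of G-protein signalling also found in pericytes, was higher at a log2 fold change of 1.55 ± 0.17 (adjusted p = 1.17e-06), and Osr1, a factor of the atrial septum's progenitors, at 0.96 ± 0.17 (adjusted p = 1.03e-04).

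Endocardial markers were lower in 7 of 12 cases and higher in 3, with a median of -0.47. Gata5, a zinc finger factor of the endocardium, had 22.9, 20.2 and 23.1 CPM at E14.5, against 92.1, 91.5, 97.4 and 93.3 CPM at E10.5, a log2 fold change of -2.08 ± 0.17 (SE, adjusted p = 1.30e-08). Nrg1, the endocardial ligand that drives trabeculation, was lower at a log2 fold change of -1.31 ± 0.15 (adjusted p = 5.62e-07). Nfatc1, which marks the endocardium of the valves, had 40.9 ± 0.679 CPM at E14.5 and 60.9 ± 5.75 CPM at E10.5 and was lower at a log2 fold change of -0.58 ± 0.09 (adjusted p = 3.90e-05). Klf2, a factor induced by flow, was higher at a log2 fold change of 0.78 ± 0.18 (adjusted p = 0.0014), with 27.7, 28.3 and 37.6 CPM at E14.5, against 13.6, 14.6, 24.1 and 20.7 CPM at E10.5. Its 2 lowest E10.5 values came from replicates 1 and 2, and without them the log2 fold change was 0.48.

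Coronary endothelial markers were mostly higher, with 13 of 18 higher, 3 lower and a median of 1.99 (1.85 without replicates 1 and 2). Apln, the peptide ligand made by sprouting coronary cells, had 25.9, 23.1 and 30.8 CPM at E14.5, against 1.06, 0.722, 1.11 and 0.813 CPM at E10.5. The E10.5 libraries were all near 1 CPM and far below the lowest E14.5 library, a log2 fold change of 4.83 ± 0.14 (SE, adjusted p = 7.14e-15). Fabp4, a fatty acid carrier of capillary cells, had 68.4, 72.5 and 88.4 CPM at E14.5, against 0.486, 0.337, 2.41 and 2.15 CPM at E10.5, a log2 fold change of 5.86 ± 0.59 (SE, adjusted p = 1.62e-06). Within E10.5 its values were several times lower in replicates 1 and 2, and without them the log2 fold change was 5.06. Gpihbp1, which holds lipoprotein lipase on capillaries, was higher at a log2 fold change of 5.70 ± 0.25 (adjusted p = 1.94e-12), and Aqp1, a water channel of the same cells, had 65.1 ± 4.86 CPM at E14.5 and 14.4 ± 0.662 CPM at E10.5 and was higher at 2.18 ± 0.10 (adjusted p = 5.18e-12). Car4, a carbonic anhydrase that marks lung and heart capillaries in the adult, went the other way with 1.33, 0.626 and 0.467 CPM at E14.5, against 13.4, 12.8, 14.4 and 13.7 CPM at E10.5, a log2 fold change of -4.05 ± 0.29 (SE, adjusted p = 1.83e-09).

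Of 16 markers shared by all endothelium 13 were higher and 3 lower with a median of 0.40. Pecam1, an adhesion molecule of every endothelial cell, had 178 ± 13.7 CPM at E14.5 and 119 ± 2.60 CPM at E10.5 and was higher at a log2 fold change of 0.58 ± 0.06 (adjusted p = 2.27e-07). Cdh5, vascular cadherin, was higher at a log2 fold change of 0.40 ± 0.10 (adjusted p = 0.0028), while Robo4, a vessel-stabilising receptor, had the largest rise of the list's named members at 2.56 ± 0.15 (adjusted p = 1.24e-10). Vwf, the clotting factor of larger vessels and endocardium, was lower at a log2 fold change of -0.93 ± 0.13 (adjusted p = 1.11e-05). Tek, the receptor of angiopoietins, was lower at a log2 fold change of -0.32 ± 0.09 (adjusted p = 0.0078), but was no longer called without replicates 1 and 2 (log2 fold change -0.17, adjusted p = 0.085). Of 6 lymphatic markers 3 were higher and 1 lower; Flt4, the receptor of VEGF-C, was higher at a log2 fold change of 0.60 ± 0.11 (adjusted p = 8.64e-05) and Reln, reelin, lower at -1.69 ± 0.32 (adjusted p = 3.87e-04).

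Signals that guide coronary growth were higher in 15 of 26 cases and lower in 5, with a median of 0.58. Without replicates 1 and 2, 15 were higher and 2 lower. Aplnr, the receptor of Apln, had 31.6, 24.9 and 34.2 CPM at E14.5, against 5.21, 3.82, 6.18 and 5.43 CPM at E10.5, a log2 fold change of 2.55 ± 0.15 (SE, adjusted p = 1.59e-10). Pdgfb, by which endothelium recruits mural cells, had 23.6, 24.2 and 32.4 CPM at E14.5, against 3.56, 3.30, 4.37 and 3.93 CPM at E10.5, without overlap between the stages (log2 fold change 2.82 ± 0.13, adjusted p = 3.26e-12). Cxcl12, the chemokine that guides coronary arteries, was higher at a log2 fold change of 1.37 ± 0.10 (adjusted p = 1.32e-09) and Vegfa, the main endothelial growth factor, at 0.61 ± 0.15 (adjusted p = 0.0023). The Notch ligand Jag1 was lower at a log2 fold change of -0.81 ± 0.09 (adjusted p = 7.70e-07) and the Notch target Hey1 at -0.85 ± 0.09 (adjusted p = 2.42e-07). For mural cells 8 of 16 markers were higher and 4 lower. Kcnj8, a potassium channel subunit of pericytes, had 11.04, 12.2 and 15.5 CPM at E14.5, against 1.33, 0.986, 0.822 and 1.21 CPM at E10.5, a log2 fold change of 3.56 ± 0.16 (SE, adjusted p = 1.94e-12). Heyl, a Notch target of the vessel wall, was higher at a log2 fold change of 2.14 ± 0.08 (adjusted p = 3.93e-13), and Pdgfrb, the receptor of Pdgfb, at 0.86 ± 0.09 (adjusted p = 1.35e-07). Smooth muscle actin Acta2, which early heart muscle also makes, was lower at a log2 fold change of -1.20 ± 0.11 (adjusted p = 2.08e-08), with 781 ± 72.0 CPM at E14.5 and 1793 ± 103 CPM at E10.5.

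Epicardial markers were split, 4 of 17 higher, 4 lower and 9 not called. Msln, mesothelin of the mature covering layer, had 24.4, 29.2 and 27.6 CPM at E14.5, against 0.597, 0.842, 1.17 and 0.918 CPM at E10.5, a log2 fold change of 4.95 ± 0.18 (SE, adjusted p = 2.13e-13). Wt1, the factor of the early epicardium, had 33.2 ± 1.93 CPM at E14.5 and 57.7 ± 1.37 CPM at E10.5 and was lower at a log2 fold change of -0.79 ± 0.11 (adjusted p = 5.70e-06). Tbx18, another early factor, was lower at a log2 fold change of -0.60 ± 0.12 (adjusted p = 4.66e-04), with 20.6% of its exon bases shared with another gene, and Upk1b, a membrane protein of mesothelium, at -1.60 ± 0.24 (adjusted p = 4.18e-05). Retinoic acid, which the epicardium makes, is formed from retinal by Aldh1a enzymes and removed by Cyp26 enzymes. Of 15 genes of that pathway 8 were higher and 4 lower. Aldh1a1 had 2.89, 4.36 and 3.24 CPM at E14.5, against 31.4, 30.8, 30.3 and 35.05 CPM at E10.5, a log2 fold change of -3.18 ± 0.38 (SE, adjusted p = 4.25e-06). Aldh1a2, the main embryonic enzyme, had 32.99 ± 2.47 CPM at E14.5 and 28.3 ± 5.23 CPM at E10.5 and was not called (log2 fold change 0.22 ± 0.16, adjusted p = 0.28), although it was called higher without replicates 1 and 2 (log2 fold change 0.45, adjusted p = 0.01). Dhrs3, which turns retinal back to retinol, was higher at a log2 fold change of 2.45 ± 0.32 (adjusted p = 1.09e-05).

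**Figure D2:**
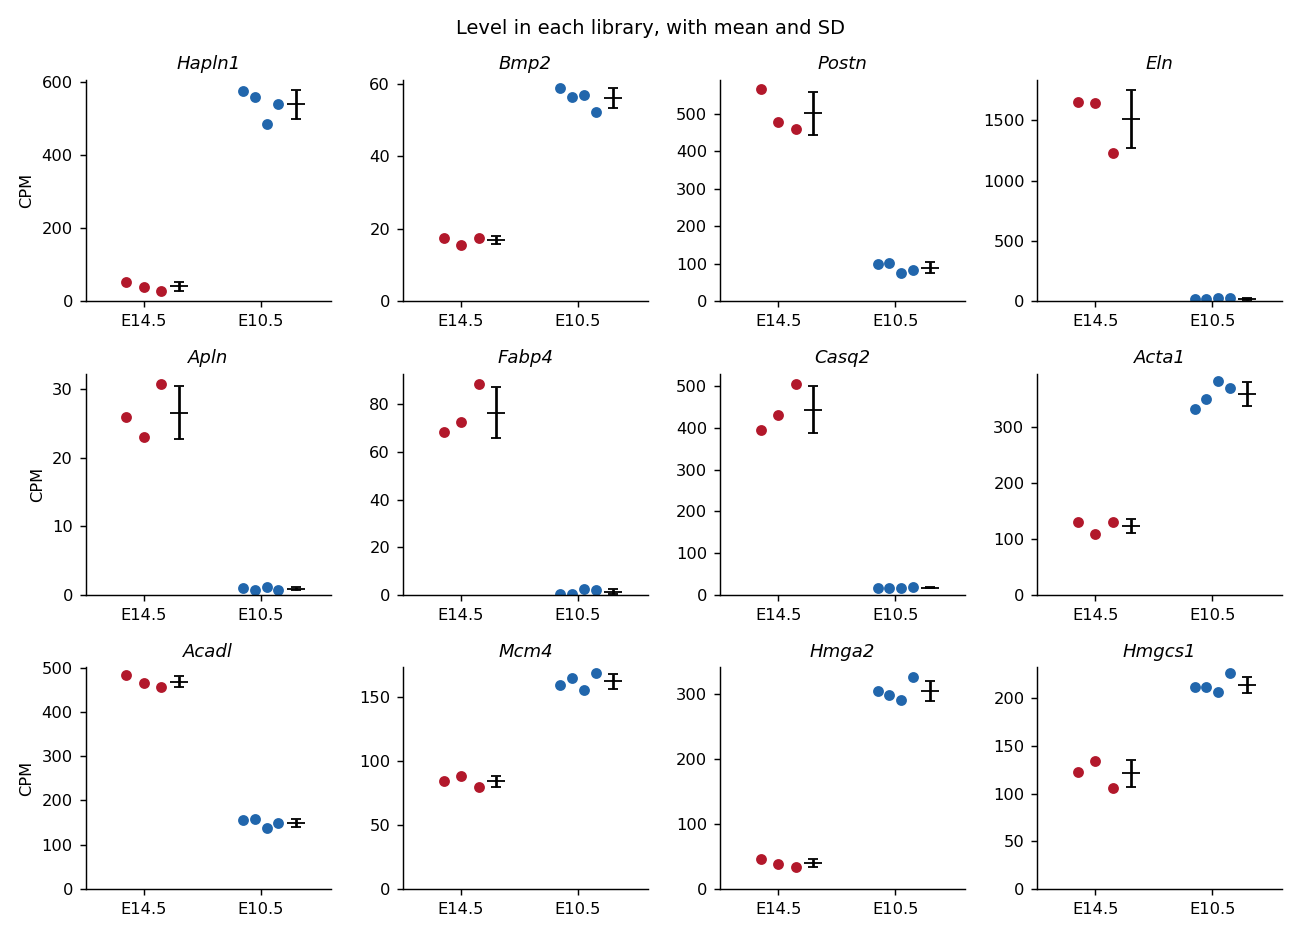
Level in CPM (y axes, from 0) of 12 genes in each of the 3 E14.5 libraries, in red on the left, and the 4 E10.5 libraries, in blue on the right, with mean and SD beside the points. No gene's stages overlap. Eln stands at 1233 to 1657 CPM at E14.5 and 15.7 to 30.3 CPM at E10.5, and Hapln1 at 29.2 to 53.4 CPM at E14.5 and 485 to 575 CPM at E10.5.

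Collagens and proteoglycans of connective tissue rose together, 18 of 19 being higher and 0 lower, with a median log2 fold change of 2.28 (2.45 without replicates 1 and 2). Col1a1, the main chain of type I collagen, had 766, 964 and 879.9 CPM at E14.5, against 185, 174, 123 and 125 CPM at E10.5, a log2 fold change of 2.52 ± 0.21 (SE, adjusted p = 5.52e-08). Col3a1, the chain of type III collagen, had 1235 ± 56.5 CPM at E14.5 and 361 ± 24.7 CPM at E10.5 and was higher at a log2 fold change of 1.77 ± 0.11 (adjusted p = 1.48e-10). Lum, lumican, a proteoglycan that spaces collagen fibrils, had 103, 80.4 and 76.0 CPM at E14.5, against 5.92, 4.21, 3.07 and 3.65 CPM at E10.5, a log2 fold change of 4.35 ± 0.19 (SE, adjusted p = 1.22e-11). Ogn, osteoglycin of the same family, was higher at a log2 fold change of 5.39 ± 0.20 (adjusted p = 3.93e-13), Dcn, decorin, at 2.51 ± 0.24 (adjusted p = 3.88e-07), and Col14a1, a collagen on fibril surfaces, at 4.28 ± 0.15 (adjusted p = 8.41e-14). Lox, the enzyme that cross-links collagen and elastin, had 76.7, 69.3 and 64.1 CPM at E14.5, against 4.73, 4.79, 2.86 and 3.80 CPM at E10.5. The stages lay far apart, a log2 fold change of 4.11 ± 0.12 (SE, adjusted p = 7.14e-15).

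Elastic fibre genes were higher in 12 of 16 cases and lower in 4, with a median of 1.18. Eln, tropoelastin, had 1657, 1642 and 1233 CPM at E14.5, against 15.7, 16.2, 30.3 and 29.2 CPM at E10.5, one of the 12 largest rises (log2 fold change 6.05 ± 0.31, adjusted p = 6.69e-10). E10.5 replicates 3 and 4 were higher than 1 and 2, and without the lower pair the log2 fold change was 5.66. Fbln5, fibulin that ties elastin to cells, had 177, 151 and 111 CPM at E14.5, against 1.61, 1.27, 2.97 and 3.65 CPM at E10.5, a log2 fold change of 5.96 ± 0.32 (SE, adjusted p = 1.07e-09). Mfap4, a microfibril protein, was higher at a log2 fold change of 4.08 ± 0.18 (adjusted p = 1.05e-11), and Mgp, which keeps vessel walls free of mineral, at 5.66 ± 0.23 (adjusted p = 6.34e-12). Members called lower were Ltbp1 at a log2 fold change of -0.52 ± 0.11 (adjusted p = 8.98e-04) and Fbln1 at -0.40 ± 0.09 (adjusted p = 0.0013); Ltbp1 stores TGF-beta and Fbln1 is a fibulin of the cushions.

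Fibroblast markers gave 12 of 15 higher and 1 lower with a median of 2.48. They share Col1a1, Lox, Ogn and other matrix genes with the lists above, so they are not separate evidence. Dpt, dermatopontin, had 24.4, 25.97 and 29.5 CPM at E14.5, against 0.0221, 0, 0.186 and 0.603 CPM at E10.5, the largest rise of all by the naming rule (log2 fold change 7.09 ± 0.46, adjusted p = 8.79e-09). E10.5 replicate 2 had no count, and without replicates 1 and 2 the log2 fold change was 6.06. Ddr2, a collagen receptor, was higher at a log2 fold change of 1.42 ± 0.21 (adjusted p = 1.63e-05), while Pdgfra, a receptor already present in early mesenchyme, had 84.9 ± 14.51 CPM at E14.5 and 77.2 ± 5.48 CPM at E10.5 and was not called (log2 fold change 0.14 ± 0.16, adjusted p = 0.49). The basement membrane list did not lean, with 4 of 15 higher and 3 lower and a median of -0.02. Within it Lama1, the embryonic laminin chain, was lower at a log2 fold change of -2.96 ± 0.33 (adjusted p = 1.05e-06) and Lama2, the chain of mature muscle, higher at 1.34 ± 0.15 (adjusted p = 5.61e-07). Col15a1, a collagen of capillary and muscle basement membrane, was higher at a log2 fold change of 4.70 ± 0.19 (adjusted p = 1.94e-12).

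Heart muscle contracts by sarcomeres, whose proteins exist in isoforms of the embryo and the adult. Of 24 core sarcomere genes 11 were higher and 4 lower, with a median of 0.15. Myom2, an M-band protein of mature muscle, had 32.4, 30.7 and 40.8 CPM at E14.5, against 0.597, 0.553, 1.46 and 1.47 CPM at E10.5, a log2 fold change of 5.11 ± 0.24 (SE, adjusted p = 7.53e-11). Tnnt2, cardiac troponin T, had 5837, 6900.5 and 7117 CPM at E14.5, against 2521, 2409.7, 2977 and 3128 CPM at E10.5, a log2 fold change of 1.26 ± 0.11 (SE, adjusted p = 1.34e-08). Tnni3, the adult cardiac troponin I, was higher at a log2 fold change of 0.94 ± 0.12 (adjusted p = 1.81e-06) and Tcap, which anchors titin, at 0.80 ± 0.08 (adjusted p = 1.98e-07). Myh6, the alpha myosin heavy chain, had 2236, 2752 and 1732 CPM at E14.5, against 4039.7, 4914, 4405 and 4436 CPM at E10.5, every E14.5 library below every E10.5 library (log2 fold change -0.99 ± 0.16, adjusted p = 5.37e-05). Myh7, the beta chain of the foetal ventricle, had 5449 ± 463 CPM at E14.5 and 5283 ± 744 CPM at E10.5 and was not called (log2 fold change 0.04 ± 0.14, adjusted p = 0.82). Per kilobase of exon the mean level of Myh7 was 632 ± 53.7 CPM per kilobase at E14.5 and 613 ± 86.3 at E10.5 and that of Myh6 333 ± 75.8 CPM per kilobase at E14.5 and 661 ± 53.3 at E10.5. Nebl, the nebulette of the thin filament, was lower at a log2 fold change of -1.16 ± 0.14 (adjusted p = 2.20e-06).

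Among 14 isoforms typical of the early heart 7 were lower and 3 higher. Acta1, skeletal actin, had 130.1, 109 and 130.4 CPM at E14.5, against 332, 349.7, 381 and 369 CPM at E10.5, a log2 fold change of -1.54 ± 0.10 (SE, adjusted p = 3.66e-10). Tnnt3, fast skeletal troponin T, was lower at a log2 fold change of -1.48 ± 0.14 (adjusted p = 6.11e-08). Tnni1, slow troponin I, had 1549 ± 179 CPM at E14.5 and 1128 ± 125 CPM at E10.5 and was higher at a log2 fold change of 0.46 ± 0.10 (adjusted p = 0.001). Tnnt1, slow skeletal troponin T, had 261, 279.8 and 258 CPM at E14.5, against 60.1, 61.0, 67.3 and 68.4 CPM at E10.5, a log2 fold change of 2.05 ± 0.12 (SE, adjusted p = 1.08e-10). Acta1 carries in its promoter a CArG box, the motif of serum response factor. The 300 bases around its start (RefSeq, GRCm38.p6, chr8:123894726-123895025, minus strand, 250 before to 50 after the start) are shown with the box, spelled CCAAATATGG, in capitals. The motif was found in 2 of 13 promoters of this list (15.4%) and in 7 of 27 core sarcomere promoters (25.9%), against 1.33% of the 16372 promoters of all tested genes.
Acta1: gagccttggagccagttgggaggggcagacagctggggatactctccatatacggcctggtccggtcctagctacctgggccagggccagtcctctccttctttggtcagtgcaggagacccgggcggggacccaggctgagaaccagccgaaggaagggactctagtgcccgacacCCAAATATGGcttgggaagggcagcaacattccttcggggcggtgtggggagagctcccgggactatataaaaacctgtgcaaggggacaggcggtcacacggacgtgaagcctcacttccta
The CArG search covered both strands, and the Acta2 and Myh6 windows held no match. Promoters matched 12868 of 18881 tested symbols, and a match is a description of the letters only.

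Genes of calcium cycling gave 9 of 19 higher and 6 lower. Casq2, calsequestrin, which stores calcium in the sarcoplasmic reticulum, had 396, 430.2 and 506 CPM at E14.5, against 17.3, 17.5, 17.3 and 18.6 CPM at E10.5. The E10.5 values lay close together and far below every E14.5 value (log2 fold change 4.65 ± 0.21, adjusted p = 4.03e-11). Sln, sarcolipin of the atria, which restrains the calcium pump, had 57.2, 57.1 and 80.4 CPM at E14.5, against 0.773, 0.674, 1.51 and 2.02 CPM at E10.5, a log2 fold change of 5.72 ± 0.33 (SE, adjusted p = 2.20e-09). Cacna1g, a T-type calcium channel, was higher at a log2 fold change of 3.11 ± 0.17 (adjusted p = 1.51e-10), while its paralogue Cacna1h was lower at -0.87 ± 0.15 (adjusted p = 1.24e-04). Pln, phospholamban, was higher at a log2 fold change of 1.56 ± 0.19 (adjusted p = 3.58e-06), but 64.7% of its exon bases overlap another gene and its counts are uncertain. Atp2a2, the calcium pump itself, had 1831 ± 88.7 CPM at E14.5 and 2222 ± 38.2 CPM at E10.5 and was slightly lower at a log2 fold change of -0.28 ± 0.08 (adjusted p = 0.0056), and Hrc, a calcium-binding protein of the same store, at -0.42 ± 0.09 (adjusted p = 4.91e-04).

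Ion channels and conduction genes were higher in 9 of 21 cases and lower in 6. Transcripts of both parts of a repolarising potassium channel were higher. Kcnq1, the pore, was higher at a log2 fold change of 1.68 ± 0.11 (adjusted p = 2.92e-10), and Kcne1, its partner, had 57.8, 65.2 and 75.0 CPM at E14.5, against 16.53, 15.4, 15.6 and 15.2 CPM at E10.5, a log2 fold change of 2.07 ± 0.11 (SE, adjusted p = 1.60e-11). Kcnj2, which sets the resting potential, was higher at a log2 fold change of 1.14 ± 0.12 (adjusted p = 2.02e-07), and Gja1, the main connexin of the ventricles, had 456 ± 19.97 CPM at E14.5 and 194 ± 26.7 CPM at E10.5 and was higher at 1.23 ± 0.11 (adjusted p = 1.81e-08). Hcn4, a channel of the pacemaker current, was lower at a log2 fold change of -1.10 ± 0.24 (adjusted p = 0.0013). Scn4b, a sodium channel subunit, had 0.403, 0.224 and 0.467 CPM at E14.5, against 7.58, 7.89, 9.83 and 9.26 CPM at E10.5, a log2 fold change of -4.58 ± 0.23 (SE, adjusted p = 1.26e-11). Of 15 receptors for hormones and nerve signals 11 were higher and 1 lower. Chrm2, the muscarinic receptor by which the vagus slows the heart, had 33.9, 30.4 and 31.4 CPM at E14.5, against 8.04, 10.1, 6.10 and 5.95 CPM at E10.5, a log2 fold change of 2.08 ± 0.14 (SE, adjusted p = 7.12e-10). Adrb1, the beta-1 adrenergic receptor, was higher at a log2 fold change of 1.55 ± 0.15 (adjusted p = 7.88e-08), Nr3c1, the glucocorticoid receptor, at 1.38 ± 0.09 (adjusted p = 2.34e-10), and Nr3c2, the mineralocorticoid receptor, at 2.56 ± 0.18 (adjusted p = 1.21e-09). Agtr2, an angiotensin receptor, had 0.498, 2.08 and 0.685 CPM at E14.5, against 0 CPM in all 4 E10.5 libraries. With no count at E10.5 it was at least 59.0-fold higher at E14.5, taking 3 counts over all 4 E10.5 libraries as the floor, and the list's median of 0.93 is the same with that bound.

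The core transcription factors of heart muscle had no common direction, 5 of 16 higher and 4 lower with a median of 0.04. Gata4 had 251 ± 11.4 CPM at E14.5 and 275 ± 15.3 CPM at E10.5 (log2 fold change -0.13 ± 0.07, adjusted p = 0.14) and was not called, but was called lower without replicates 1 and 2 (log2 fold change -0.19, adjusted p = 0.047). Nkx2-5 had 262 ± 67.3 CPM at E14.5 and 218 ± 27.8 CPM at E10.5 (log2 fold change 0.27 ± 0.15, adjusted p = 0.16) and was not called over all libraries. Tbx5 and Mef2c were slightly lower, at a log2 fold change of -0.38 ± 0.11 (adjusted p = 0.0056) and -0.37 ± 0.08 (adjusted p = 7.99e-04). Foxh1, a partner of SMAD proteins in early patterning, had 0.0237, 0.201 and 0.125 CPM at E14.5, against 3.18, 3.56, 5.35 and 4.88 CPM at E10.5, a log2 fold change of -5.13 ± 0.45 (SE, adjusted p = 4.11e-08). In the layers of the ventricular wall 5 of 16 genes were higher, 5 lower and 6 not called, with a median of 0.05. Vcan and Nrg1, described above, were among the lower ones, at log2 fold changes of -1.90 and -1.31. Bmp10 and Nppb, which stand among the first 4 members, were not called over all libraries. Hey2, a repressor protein made in the compact layer, had 116, 108 and 112 CPM at E14.5, against 75.7, 79.7, 68.0 and 67.9 CPM at E10.5, a log2 fold change of 0.62 ± 0.07 (SE, adjusted p = 9.97e-07). Gja5, a connexin of trabeculae and atria, was higher at a log2 fold change of 0.41 ± 0.11 (adjusted p = 0.0056), and Nppa, the atrial natriuretic peptide of trabeculae and atria, at 1.17 ± 0.16 (adjusted p = 9.03e-06), although 61.5% of its exon bases overlap another gene.

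Genes of fatty acid oxidation and uptake rose almost throughout, with 26 of 29 members higher and 0 lower. The median was 0.52 (0.61 without replicates 1 and 2, where 25 were higher). Besides oxidation enzymes the list holds genes of uptake and regulation, and its largest rise was that of Fabp4. Fabp4 and Cd36 also stand in the coronary endothelial list, so the 2 lists are not wholly separate evidence. Acadl, the dehydrogenase of long chains, had 483, 465 and 457 CPM at E14.5, against 156, 157, 138 and 148 CPM at E10.5. The libraries of each stage lay close together and the stages far apart, a log2 fold change of 1.65 ± 0.09 (SE, adjusted p = 1.48e-11). Acadm, the enzyme of medium chains, was higher at a log2 fold change of 0.84 ± 0.08 (adjusted p = 2.57e-08), Cpt1a, which admits fatty acids to mitochondria, at 1.35 ± 0.15 (adjusted p = 1.08e-06), and Hadha, part of the trifunctional protein, at 0.39 ± 0.07 (adjusted p = 1.57e-04). Pdk4, which shuts pyruvate out of the citric acid cycle, had 51.7 ± 4.42 CPM at E14.5 and 19.8 ± 1.68 CPM at E10.5 and was higher at a log2 fold change of 1.38 ± 0.09 (adjusted p = 3.13e-10).

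The citric acid cycle list had 13 of 22 higher and 0 lower, the nuclear respiratory chain list 25 of 28 and 0, and the mitochondrially encoded list 9 of 13 and 0, with medians of 0.25, 0.46 and 0.57. Without replicates 1 and 2 the respiratory chain count was 18. Mitochondrially encoded genes took 3.84 to 4.91% of counts at E14.5 and 2.40 to 3.17% at E10.5. Idh2, the mitochondrial isocitrate dehydrogenase that makes NADPH, had 1259, 1202 and 1441 CPM at E14.5, against 604, 591, 560.5 and 543 CPM at E10.5, a log2 fold change of 1.18 ± 0.08 (SE, adjusted p = 3.34e-10). Cs, citrate synthase, had 534 ± 19.9 CPM at E14.5 and 589 ± 16.8 CPM at E10.5 and was not called (log2 fold change -0.14 ± 0.06, adjusted p = 0.069), though DESeq2 called it lower (log2 fold change -0.13, adjusted p = 0.0306). Cox8b, a subunit of cytochrome oxidase found in heart and skeletal muscle, had 9.83, 21.8 and 37.1 CPM at E14.5, against 1.72, 1.40, 1.75 and 1.55 CPM at E10.5, a log2 fold change of 3.83 ± 0.39 (SE, adjusted p = 1.39e-06). Its E14.5 libraries differed widely among themselves, yet all lay above E10.5. Ndufv1 of complex I was higher at a log2 fold change of 0.61 ± 0.09 (adjusted p = 1.02e-05) and mt-Nd4, a complex I subunit of the mitochondrial genome, at 0.76 ± 0.11 (adjusted p = 1.10e-05).

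Glycolysis showed no common direction, 9 of 23 higher and 7 lower with a median of 0.01, and transporters and isoforms differed in direction. Slc2a1, the glucose transporter of the embryo, had 364, 379.9 and 279.6 CPM at E14.5, against 881, 984, 967 and 894 CPM at E10.5, a log2 fold change of -1.45 ± 0.13 (SE, adjusted p = 2.51e-08). Slc2a4, the insulin-dependent transporter of muscle and fat, had 36.8, 38.5 and 35.4 CPM at E14.5, against 15.6, 16.9, 16.8 and 16.8 CPM at E10.5, a log2 fold change of 1.16 ± 0.08 (SE, adjusted p = 3.69e-10). Ldhb, the lactate dehydrogenase chain of oxidative tissue, was higher at a log2 fold change of 1.53 ± 0.10 (adjusted p = 5.81e-10), whereas Ldha was not called (log2 fold change -0.18 ± 0.10, adjusted p = 0.12). Pfkm, the muscle phosphofructokinase, was higher at a log2 fold change of 0.91 ± 0.06 (adjusted p = 5.33e-10), and Eno1, the widespread enolase, lower at -0.70 ± 0.09 (adjusted p = 1.57e-06).

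DNA replication genes were lower in 35 of 36 cases and higher in 0, with a median log2 fold change of -0.56 (-0.55 without replicates 1 and 2). Mcm4, a subunit of the helicase that opens DNA, had 84.5, 88.1 and 79.8 CPM at E14.5, against 159.8, 165, 156 and 169 CPM at E10.5. The stages did not overlap, a log2 fold change of -0.95 ± 0.06 (SE, adjusted p = 4.27e-10). Mcm2 was lower at a log2 fold change of -0.90 ± 0.08 (adjusted p = 2.87e-08), Mcm3 at -0.89 ± 0.08 (adjusted p = 1.23e-08) and Mcm5 at -0.79 ± 0.06 (adjusted p = 5.05e-09), and Cdc6, which loads the helicase, had 31.1 ± 3.81 CPM at E14.5 and 62.3 ± 4.81 CPM at E10.5 and was lower at -1.004 ± 0.09 (adjusted p = 5.04e-08). Pcna, the sliding clamp, was lower at a log2 fold change of -0.41 ± 0.08 (adjusted p = 2.48e-04), and Rrm2, which makes deoxynucleotides, at -0.31 ± 0.07 (adjusted p = 4.91e-04). The replication promoters often hold sites of the E2F factors, spelled here TTTCCCGC, TTTGGCGC, TTTCGCGC or TTTGCCGC on either strand, where neighbouring matches may overlap. They were found in 12 of 32 promoters of the list (37.5%) against 580 of 16372 promoters of all tested genes (3.54%). Of promoters of all genes called lower 5.03% held one, and of those called higher 2.43%. Among genes called and at least 2-fold changed the shares were alike. They were 12 of 675 promoters (1.78%) for lower genes and 29 of 1634 (1.77%) for higher genes. Promoters of the helicase subunits Mcm5 and Mcm3 are shown, with these letters in capitals, as examples with 2 matches each (RefSeq, GRCm38.p6, Mcm5 at chr8:75109259-75109558, plus strand, and Mcm3 at chr1:20820263-20820562, minus strand, 250 bases before to 50 after the start).
Mcm5: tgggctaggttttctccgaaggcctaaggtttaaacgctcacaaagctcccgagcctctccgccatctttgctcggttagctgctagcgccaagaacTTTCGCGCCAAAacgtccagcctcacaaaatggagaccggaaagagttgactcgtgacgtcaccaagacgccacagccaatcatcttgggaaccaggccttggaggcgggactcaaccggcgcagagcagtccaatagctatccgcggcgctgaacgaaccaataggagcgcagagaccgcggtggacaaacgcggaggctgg
Mcm3: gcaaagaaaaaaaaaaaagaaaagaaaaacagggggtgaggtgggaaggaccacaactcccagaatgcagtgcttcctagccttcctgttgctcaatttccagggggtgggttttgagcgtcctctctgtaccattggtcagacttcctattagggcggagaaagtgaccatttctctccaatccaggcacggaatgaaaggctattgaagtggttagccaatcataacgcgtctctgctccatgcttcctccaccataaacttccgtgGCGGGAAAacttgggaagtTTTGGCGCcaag
Among the other members looked at, Mcm6 held 3 matches, Cdc6 held 1, and Mcm2, Pcna and Rrm2 held none. In Mcm5 a pair of matches overlaps, and in Mcm3 the first lies 19 bases after the start.

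Mitosis genes were lower in 24 of 28 cases and higher in 0, with a median of -0.43; 20 were lower without replicates 1 and 2. Ccnb1, the mitotic cyclin, had 143, 141 and 131 CPM at E14.5, against 222, 220.1, 215 and 210.0 CPM at E10.5, a log2 fold change of -0.65 ± 0.08 (SE, adjusted p = 1.10e-06). Its kinase Cdk1 had 101 ± 8.38 CPM at E14.5 and 127 ± 3.25 CPM at E10.5 and was lower at a log2 fold change of -0.33 ± 0.07 (adjusted p = 3.43e-04). Aurka, the kinase of the spindle poles, was lower at a log2 fold change of -0.58 ± 0.06 (adjusted p = 3.72e-07), Tpx2, which activates it, at -0.72 ± 0.08 (adjusted p = 1.79e-07), and Mki67, the Ki-67 protein of cycling cells, at -0.89 ± 0.17 (adjusted p = 2.48e-04). The cell cycle homology region was spelled TTTGAA or TTCGAA, on either strand. It stood in 21 of 26 promoters of the list (80.8%), against 14.1% of all promoters of tested genes. Outside the list the shares hardly differed by direction. Of promoters of all genes called lower 15.01% held one, and of those called higher 13.99%. With at least 2-fold change the shares were 13.48% for lower and 15.73% for higher genes. Plk1, another member of the list, held 1 match, and Ccnb1 held none. The Cdk1 promoter is shown because it holds 2 such matches, which are in capitals (RefSeq, GRCm38.p6, chr10:69352863-69353162, minus strand, the same window).
Cdk1: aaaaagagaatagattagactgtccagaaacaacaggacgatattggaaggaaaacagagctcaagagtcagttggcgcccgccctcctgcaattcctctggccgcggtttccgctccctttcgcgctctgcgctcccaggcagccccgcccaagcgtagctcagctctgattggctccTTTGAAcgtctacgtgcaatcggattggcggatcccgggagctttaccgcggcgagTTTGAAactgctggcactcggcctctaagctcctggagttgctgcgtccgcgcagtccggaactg

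Cyclins of the G1 phase and E2F factors were lower in 11 of 16 cases and higher in 1. Ccnd2, a D-type cyclin that growth signals induce, had 365, 364 and 352 CPM at E14.5, against 738, 761, 767 and 789 CPM at E10.5. The 3 E14.5 values lay close together, far below the lowest E10.5 value (log2 fold change -1.08 ± 0.06, adjusted p = 5.02e-11). Ccne1, the cyclin of S phase entry, was lower at a log2 fold change of -1.03 ± 0.07 (adjusted p = 1.07e-09). E2f1 was the member called higher (log2 fold change 0.38 ± 0.13, adjusted p = 0.027), and was no longer called without replicates 1 and 2 (log2 fold change 0.21, adjusted p = 0.18), nor when E14.5 replicate 2 or 3 or E10.5 replicate 1 or 2 alone was left out (adjusted p 0.0642, 0.19, 0.0764 and 0.0794). Cell cycle inhibitors were mostly higher, 10 of 14 higher and 1 lower. Cdkn2c, an inhibitor of the D-type cyclin kinases, had 38.1, 36.7 and 49.8 CPM at E14.5, against 8.68, 8.13, 8.08 and 8.001 CPM at E10.5, a log2 fold change of 2.33 ± 0.10 (SE, adjusted p = 1.67e-12). Cdkn1a was higher at a log2 fold change of 0.67 ± 0.12 (adjusted p = 8.43e-05), Cdkn1b at 0.48 ± 0.08 (adjusted p = 2.81e-05) and Btg1, an antiproliferative factor, at 1.29 ± 0.12 (adjusted p = 4.05e-08). Cdkn1c, an imprinted inhibitor, was the member called lower. It had 713, 684 and 674 CPM at E14.5, against 1662, 1759, 1903 and 1808 CPM at E10.5 (log2 fold change -1.37 ± 0.07, adjusted p = 1.62e-11). Of its exon bases 30.7% overlap another gene.

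Ribosome biogenesis genes were lower without exception among those tested, 22 of 22, with a median of -0.87 and 22 lower without replicates 1 and 2. Nolc1, a nucleolar assembly factor, had 51.2, 52.3 and 50.4 CPM at E14.5, against 113, 116, 119 and 124 CPM at E10.5, a log2 fold change of -1.20 ± 0.07 (SE, adjusted p = 1.05e-10). Ncl, nucleolin, had 529.7 ± 52.5 CPM at E14.5 and 979.6 ± 50.5 CPM at E10.5 and was lower at a log2 fold change of -0.89 ± 0.07 (adjusted p = 6.34e-09), Npm1, nucleophosmin, at -0.92 ± 0.09 (adjusted p = 7.04e-08), Ddx21, a nucleolar helicase, at -1.16 ± 0.07 (adjusted p = 2.24e-10), and Dkc1, which modifies ribosomal RNA, at -0.84 ± 0.06 (adjusted p = 6.42e-10).

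The LIN28 pathway had the lowest median of the pathway lists. LIN28 proteins block the maturation of let-7 microRNAs, and let-7 in turn silences messages that carry its sites, among them those of Lin28a, Lin28b and Hmga2. The 9 mature let-7 family sequences of the mouse in the RefSeq table share the seed GAGGUAG, bases 2 to 8, in capitals, and are shown because it sets which sites are read.
mmu-let-7a-5p: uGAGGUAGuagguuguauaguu
mmu-let-7b-5p: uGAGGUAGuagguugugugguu
mmu-let-7c-5p: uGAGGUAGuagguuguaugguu
mmu-let-7d-5p: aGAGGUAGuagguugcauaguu
mmu-let-7e-5p: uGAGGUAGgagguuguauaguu
mmu-let-7f-5p: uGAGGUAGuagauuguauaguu
mmu-let-7g-5p: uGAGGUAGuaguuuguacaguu
mmu-let-7i-5p: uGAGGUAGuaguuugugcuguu
mmu-miR-98-5p: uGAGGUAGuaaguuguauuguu
The microRNAs themselves were not analysed here.

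All 14 of 14 LIN28 and oncofetal genes tested were lower at E14.5, with a median log2 fold change of -1.79 (-1.83 without replicates 1 and 2). Lin28a had 1.18, 1.03 and 0.592 CPM at E14.5, against 15.05, 13.8, 21.4 and 19.6 CPM at E10.5, a log2 fold change of -4.18 ± 0.35 (SE, adjusted p = 9.20e-08). Lin28b had 5.59, 5.35 and 4.30 CPM at E14.5, against 29.04, 29.8, 30.8 and 27.9 CPM at E10.5, a log2 fold change of -2.53 ± 0.14 (SE, adjusted p = 2.31e-11). Hmga2, a chromatin protein of dividing embryonic cells, had 45.9, 38.7 and 34.3 CPM at E14.5, against 305, 299, 290.1 and 326 CPM at E10.5. Every E14.5 library lay far below every E10.5 library, a log2 fold change of -2.94 ± 0.10 (SE, adjusted p = 7.92e-14). Trim71, the mouse counterpart of the worm let-7 target lin-41, had 1.02, 1.01 and 0.436 CPM at E14.5, against 27.3, 25.4, 27.6 and 28.5 CPM at E10.5, a log2 fold change of -5.01 ± 0.27 (SE, adjusted p = 1.62e-10). Igdcc3, a surface protein outside the list but among the 12 largest falls, had 1.45, 1.86 and 1.21 CPM at E14.5, against 27.3, 25.1, 36.8 and 34.8 CPM at E10.5, a log2 fold change of -4.35 ± 0.16 (SE, adjusted p = 1.21e-13). The level of Lin28a at E12.5 was 1.99 ± 0.406 CPM.

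The 8-base site that pairs with the seed, CTACCTCA, was looked for in 3' untranslated regions of the GENCODE M21 annotation (GRCm38). Trim71 held 4 sites in transcript Trim71-201, Igf2bp1 and Nr6a1 held 3 each, Lin28a and Igdcc3 held 2 each and Hmga2 and Lin28b 1 each. Of the 14 members of the LIN28 list 9 held at least 1 site and 5 held none, though all 14 were lower. The first site of each is shown with the bases around it, the site in capitals, because all of these messages were lower at E14.5, Igf2bp1 at a log2 fold change of -1.68 ± 0.11 (adjusted p = 2.65e-10) and Nr6a1 at -1.90 ± 0.21 (adjusted p = 5.10e-07).
Trim71: attgcctaagtcCTACCTCAgc
Igf2bp1: gtgcgaagtaaaCTACCTCAag
Nr6a1: tgacaaagacaaCTACCTCAat
Lin28a: cagcctgttgaaCTACCTCAtt
Igdcc3: gactctcagcacCTACCTCAgc
Hmga2: gacattcaatttCTACCTCAgc
Lin28b: cgggcgggaagtCTACCTCAtg
Over 15306 tested genes with such a region, 28.7% were called lower. Among 523 genes with 1 site 38.4% were lower, and their median log2 fold change was -0.11. Among 28 genes with 2 or more sites 16 (57.1%) were lower and 3 higher, with a median of -0.43. Of 7 genes with 3 or more, 6 were lower. Trim71, Igf2bp1 and Nr6a1, shown above, are among these 6. With Lin28a and Igdcc3 they are also among the 16, and Hmga2 and Lin28b are among the genes with 1 site. Those genes were listed with earlier results known or picked as large falls, so the shares are not separate evidence. Genes with more sites also had longer regions, with a median of 3592.5 bases for 2 or more sites against 1113 for none, and the part of length in these shares was not tested.

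Growth factors and imprinted genes had no common direction, 6 of 18 higher and 8 lower. Igfbp3, which binds insulin-like growth factors, had 87.4, 73.3 and 74.2 CPM at E14.5, against 14.9, 15.4, 16.2 and 14.8 CPM at E10.5, a log2 fold change of 2.35 ± 0.10 (SE, adjusted p = 7.36e-13). Igf1 was higher at a log2 fold change of 0.67 ± 0.13 (adjusted p = 1.84e-04), and Peg3, a paternally expressed zinc finger gene, was lower at -1.21 ± 0.16 (adjusted p = 7.50e-06). H19, the imprinted non-coding RNA, stood at 11103 ± 362 CPM at E14.5 and 9074 ± 211 CPM at E10.5 and was higher at a log2 fold change of 0.29 ± 0.08 (adjusted p = 0.0057).

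The mevalonate pathway makes isoprenoids from acetyl-CoA, which feed cholesterol synthesis and the prenylation of proteins. Of 9 genes 7 were lower and 0 higher, with a median of -0.82 (-0.91 without replicates 1 and 2). Hmgcs1, the synthase at the head of the pathway, had 123, 134 and 106 CPM at E14.5, against 211, 212, 207 and 226 CPM at E10.5, all E14.5 libraries below all E10.5 libraries (log2 fold change -0.82 ± 0.09, adjusted p = 2.21e-07). Acat2, which joins the first acetyl units, was lower at a log2 fold change of -1.02 ± 0.08 (adjusted p = 7.31e-09), and Mvk, mevalonate kinase, at -0.74 ± 0.11 (adjusted p = 1.91e-05). Mvd, the decarboxylase, was lower at a log2 fold change of -0.81 ± 0.10 (adjusted p = 9.92e-07), and Idi1, which makes the isomers that are joined, at -1.14 ± 0.09 (adjusted p = 4.94e-09). Fdps, the synthase of farnesyl units, was lower at a log2 fold change of -0.84 ± 0.12 (adjusted p = 1.12e-05), with 26.7% of its exon bases shared with another gene. The cholesterol branch was lower too, 14 of 15 lower and 0 higher with a median of -0.74. Sqle, squalene epoxidase, had 41.4, 42.9 and 41.4 CPM at E14.5, against 88.9, 85.1, 85.7 and 89.7 CPM at E10.5, a log2 fold change of -1.06 ± 0.08 (SE, adjusted p = 4.24e-09). Cyp51 and Msmo1, which strip methyl groups from lanosterol, were lower at a log2 fold change of -1.21 ± 0.07 (adjusted p = 1.51e-10) and -1.30 ± 0.10 (adjusted p = 3.56e-09). At E12.5 the mean of Hmgcs1 was 156 ± 2.82 CPM and that of Sqle 61.1 ± 2.41 CPM, in each case between the later and earlier stage.

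**Figure D3:**
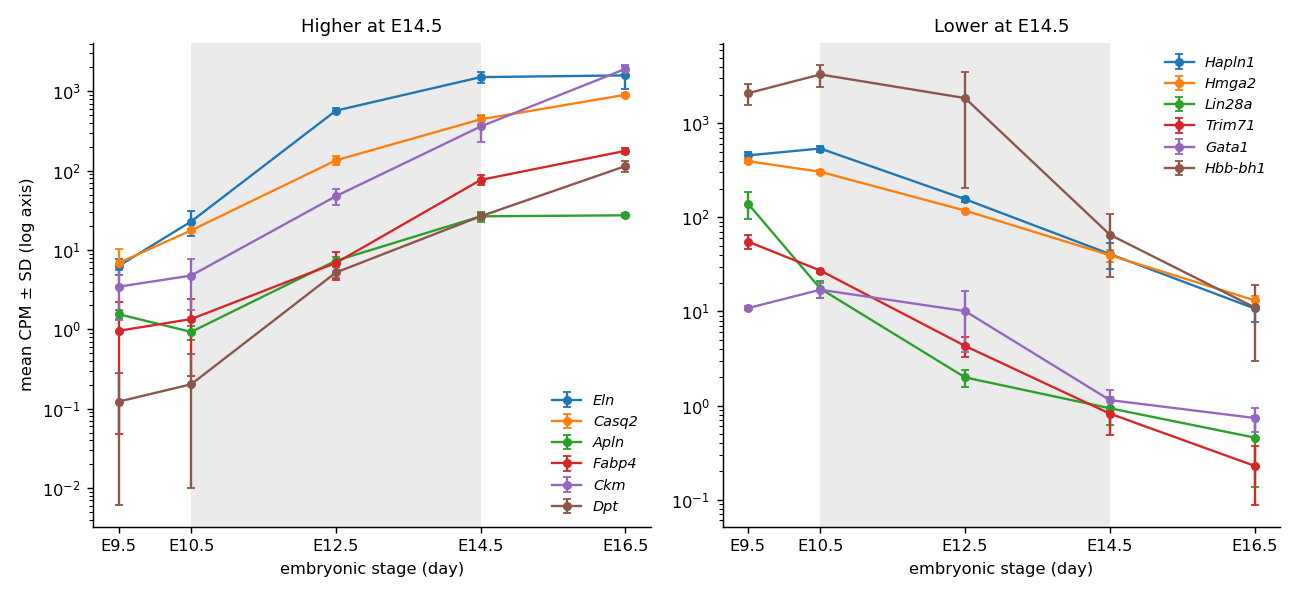
Mean level in CPM on a log axis (y) at the 5 stages (x, embryonic day), with SD bars over 3 or 4 libraries, for 6 genes higher and 6 genes lower at E14.5 than at E10.5; the span is shaded, and lower bars that would reach 0 are cut short. Eln has 1510.4 CPM at E14.5 and 1589 CPM at E16.5, Ckm 360.4 and 1919 CPM, and Lin28a 17.5 CPM at E10.5, 1.99 CPM at E12.5 and 0.936 CPM at E14.5.

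Red cells of the yolk sac, which carry embryonic globins, are followed in this span by red cells of the liver, which carry adult globins. Of 13 primitive erythroid genes 11 were lower and 0 higher with a median of -3.02. Hbb-bh1, the early embryonic beta-type globin, had 99.6, 78.1 and 18.6 CPM at E14.5, against 2579, 2520.1, 4289.8 and 3829.8 CPM at E10.5, a log2 fold change of -5.66 ± 0.90 (SE, adjusted p = 1.28e-04). The E14.5 libraries differed widely among themselves, replicate 3 being the lowest, and all lay far below E10.5. Gata1, the master factor of red cells, had 1.35, 1.298 and 0.779 CPM at E14.5, against 14.6, 15.5, 21.8 and 16.2 CPM at E10.5, a log2 fold change of -3.88 ± 0.41 (SE, adjusted p = 1.11e-06). Ermap, a red cell surface protein, was lower at a log2 fold change of -3.57 ± 0.33 (adjusted p = 4.08e-07), and Epb42, a protein of the red cell skeleton, at -3.02 ± 0.32 (adjusted p = 1.35e-06). All 4 adult globin genes were higher. Hbb-bs had 3495, 2203 and 1663 CPM at E14.5, against 4.49, 4.86, 31.3 and 44.1 CPM at E10.5, a log2 fold change of 6.86 ± 0.96 (SE, adjusted p = 4.34e-05), and its E10.5 values were lower in replicates 1 and 2 (log2 fold change 6.02 without them). The adult globins are near-identical copies, so the split between them is uncertain. Globin genes together took 0.511 to 1.62% of the counts at E14.5 and 0.910 to 1.58% at E10.5. Megakaryocyte markers were lower in 5 of 10 cases and higher in 1, and without replicates 1 and 2 7 were lower and 0 higher. Itgb3, a platelet integrin chain, was lower at a log2 fold change of -1.39 ± 0.19 (adjusted p = 1.61e-05).

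Macrophage markers were higher in 9 of 16 cases and lower in 0, with a median of 1.85 (0.98 without replicates 1 and 2, where 14 were higher). Cx3cr1, the fractalkine receptor of resident macrophages, had 14.1, 13.6 and 11.9 CPM at E14.5, against 1.19, 1.40, 1.14 and 1.02 CPM at E10.5. Its 4 E10.5 values were alike (log2 fold change 3.47 ± 0.15, adjusted p = 1.21e-12). Csf1r, the receptor on which these cells depend, had 36.4, 34.4 and 34.1 CPM at E14.5, against 3.29, 3.58, 9.30 and 7.004 CPM at E10.5, a log2 fold change of 2.60 ± 0.43 (SE, adjusted p = 1.57e-04), or 2.10 without replicates 1 and 2. C1qa, a complement chain, was higher at a log2 fold change of 3.96 ± 0.51 (adjusted p = 1.19e-05), or 3.25 without them. Adgre1, the F4/80 antigen, had 15, 14.7 and 11.6 CPM at E14.5, against 0.663, 0.481, 5.73 and 8.45 CPM at E10.5, and was not called over all libraries (log2 fold change 1.86 ± 1.05, adjusted p = 0.16), but was without replicates 1 and 2 (log2 fold change 0.96, adjusted p = 5.35e-04). The summed level of the list was 264 to 299 CPM at E14.5 and 38.1 to 123 CPM at E10.5. None of the 8 activated macrophage-type transcripts was called. Chil3, a secreted chitinase-like protein, had 227, 259.7 and 171 CPM at E14.5, against 0, 0, 181 and 197 CPM at E10.5. Whether these transcripts and Gh came from the hearts was not tested.

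Other tissues that a dissected heart could carry were at low levels. Summed over the list, endoderm and liver markers stood at 4.12 to 5.42 CPM at E14.5 and 1.44 to 5.48 CPM at E10.5, lung and foregut markers at 2.83 to 4.79 CPM at E14.5 and 1.44 to 2.87 CPM at E10.5, and pharyngeal arch and skeletal muscle markers at 2.71 to 3.79 CPM at E14.5 and 2.02 to 3.49 CPM at E10.5. Thymus and lymphoid markers summed to 5.64 to 8.21 CPM at E14.5 and 1.88 to 5.14 CPM at E10.5. Of these 1 of 4, 0 of 5, 4 of 7 and 1 of 2 tested members were called higher, and 0 of 9, 0 of 8, 0 of 10 and 1 of 8 members had no count in any of the 7 libraries. Neuronal markers were higher in 7 of 11 cases and lower in 1, but only 3 were higher without replicates 1 and 2, and the median moved to 0.39 there against 1.17 over all libraries. Dbh, the enzyme that makes noradrenaline, had 0.782, 1.298 and 1.53 CPM at E14.5, against 0.177, 0.192, 0.451 and 0.236 CPM at E10.5, a log2 fold change of 2.18 ± 0.34 (SE, adjusted p = 2.39e-05). In the neural crest and Schwann cell list 3 of 10 were higher and 1 lower; Ednrb, an endothelin receptor of crest and vessels, was higher at a log2 fold change of 0.61 ± 0.10 (adjusted p = 6.34e-05), and Erbb3, the receptor of neuregulin on glial precursors, lower at -0.79 ± 0.14 (adjusted p = 9.95e-05).

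**Figure D4:**
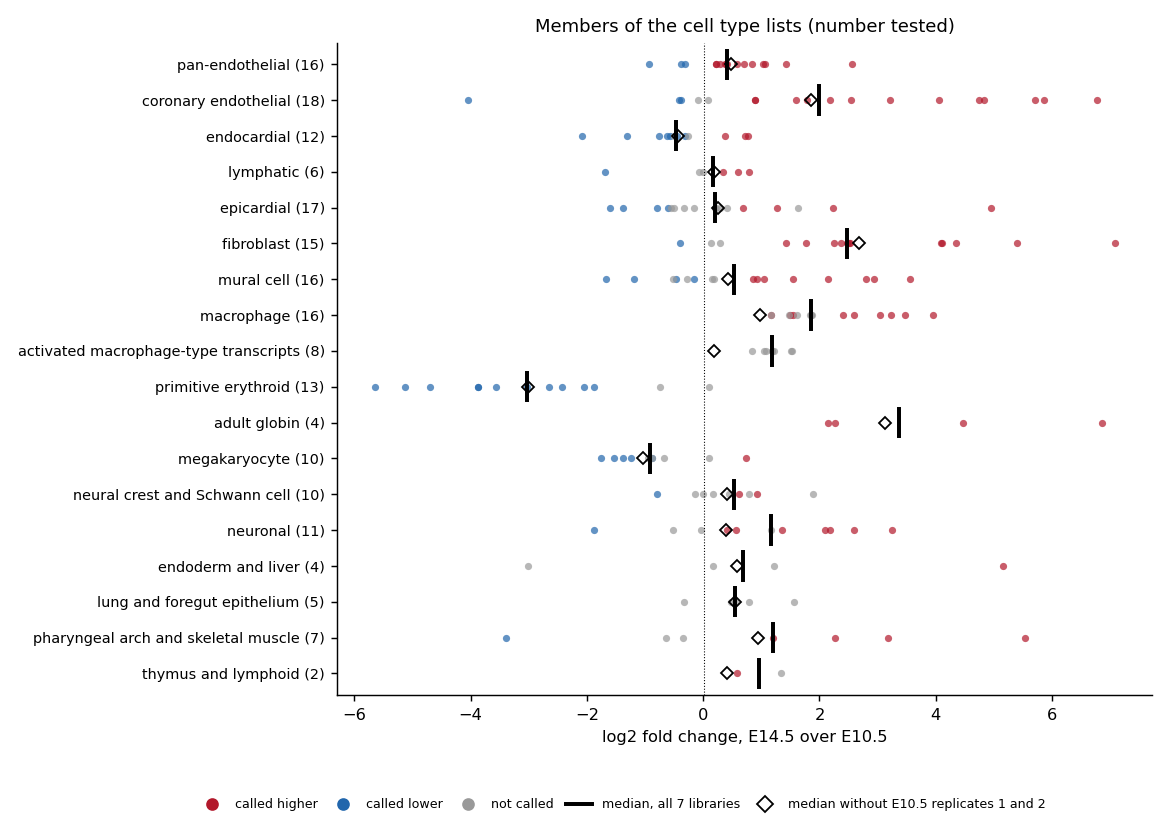
Log2 fold change of E14.5 over E10.5 (x axis) for each tested member of the 18 cell type lists, drawn as for the pathway lists. Fibroblast and coronary endothelial markers have medians of 2.48 and 1.99, primitive erythroid markers -3.02, and the median of the activated macrophage-type transcripts is 1.19 over all libraries and 0.19 without E10.5 replicates 1 and 2. Foxd3, with no count at E10.5, is not drawn.

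The 12 largest rises and falls were chosen among called genes that did not overlap and averaged 10 CPM or more at the stage where they were higher, leaving out ribosomal, mitochondrial, globin, non-coding and unnamed genes. The rises were Dpt, Fmo2, Asb11, Aspn, Ckm, Eln, Col6a6, Fbln5, Ptgds, Fndc1, Btnl9 and Fabp4. Ckm, the creatine kinase of muscle, had 265, 310.1 and 506 CPM at E14.5, against 2.45, 2.53, 5.20 and 8.87 CPM at E10.5, a log2 fold change of 6.25 ± 0.48 (SE, adjusted p = 9.16e-08). Aspn, asporin of the small proteoglycans, was higher at a log2 fold change of 6.27 ± 0.35 (adjusted p = 8.13e-10), or 5.52 without replicates 1 and 2, and Col6a6, a type VI collagen chain, at 5.99 ± 0.22 (adjusted p = 1.95e-13). Fmo2, a flavin monooxygenase, had 8.63, 9.98 and 11.8 CPM at E14.5, against 0.0221, 0.0481, 0.133 and 0.105 CPM at E10.5, a log2 fold change of 7.03 ± 0.35 (SE, adjusted p = 9.41e-12) (6.37 without replicates 1 and 2). Ptgds, which makes prostaglandin D2, had 11.9, 15.3 and 25.3 CPM at E14.5, against 0.0221, 0.0241, 0.557 and 0.577 CPM at E10.5, with both higher E10.5 values in replicates 3 and 4, a log2 fold change of 5.94 ± 0.71 (SE, adjusted p = 8.50e-06) (4.93 without replicates 1 and 2). The falls were Pklr, Hemgn, Trim71, Klf1, Slc30a10, Igdcc3, Lin28a, Car4, Rhag, Gata1, Lhx9 and Hsd11b2. Pklr, the pyruvate kinase of red cells and liver, had 1.07, 1.32 and 1.18 CPM at E14.5, against 51.5, 56.3, 72.5 and 52.3 CPM at E10.5, the largest fall (log2 fold change -5.60 ± 0.60, adjusted p = 2.60e-06). Of its exon bases 21.97% are shared with Hcn3. Klf1, the factor that switches globin genes, was lower at a log2 fold change of -4.69 ± 0.53 (adjusted p = 3.57e-06), Hemgn, a nuclear protein of red cell precursors, at -5.13 ± 0.72 (adjusted p = 4.06e-05), and Rhag, a membrane protein of red cells, at -3.88 ± 0.50 (adjusted p = 1.55e-05). Slc30a10, a manganese exporter, had 1.52, 0.850 and 0.405 CPM at E14.5, against 25.4, 23.5, 25.9 and 19.3 CPM at E10.5, a log2 fold change of -4.63 ± 0.45 (SE, adjusted p = 5.37e-07). Lhx9, a LIM homeobox factor, had 0.819 ± 0.184 CPM at E14.5 and 11.7 ± 0.873 CPM at E10.5.

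E12.5 lies in the middle of the span, and its 4 libraries were tested against the midpoint, on the log scale, of E14.5 and E10.5. Of 18885 genes 1498 (7.93%) departed from it, 1200 (6.35%) above and 298 (1.58%) below. With libraries scaled by their totals only, 944 lay above and 567 below. Among the 1993 genes at least 2-fold higher at E14.5, 415 (20.8%) lay above the midpoint at E12.5 and 22 below. Among the 842 at least 2-fold lower, 81 lay above and 71 below. Matrix genes lay mostly above it: 13 of 16 elastic fibre genes and 12 of 19 collagen and proteoglycan genes lay above the midpoint and 0 and 0 below. Fbln5 had a mean of 102 ± 10.3 CPM at E12.5, 2.46 above the midpoint on the log2 scale, and Lum 84.4 ± 12.98 CPM, 2.14 above it. Of 29 fatty acid oxidation and uptake genes 0 lay above the midpoint and 1 below. Of LIN28 and oncofetal genes 4 of 14 lay below and 0 above. Primitive erythroid genes lay above it in 11 of 13 cases; Hbb-y, the other embryonic beta-type globin, had a mean of 20372 ± 8339.5 CPM at E12.5, against 2592 ± 1956 CPM at E14.5 and 4355 ± 915 CPM at E10.5, and was not called between the outer stages (log2 fold change -0.75 ± 0.62, adjusted p = 0.34).

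**Figure D5:**
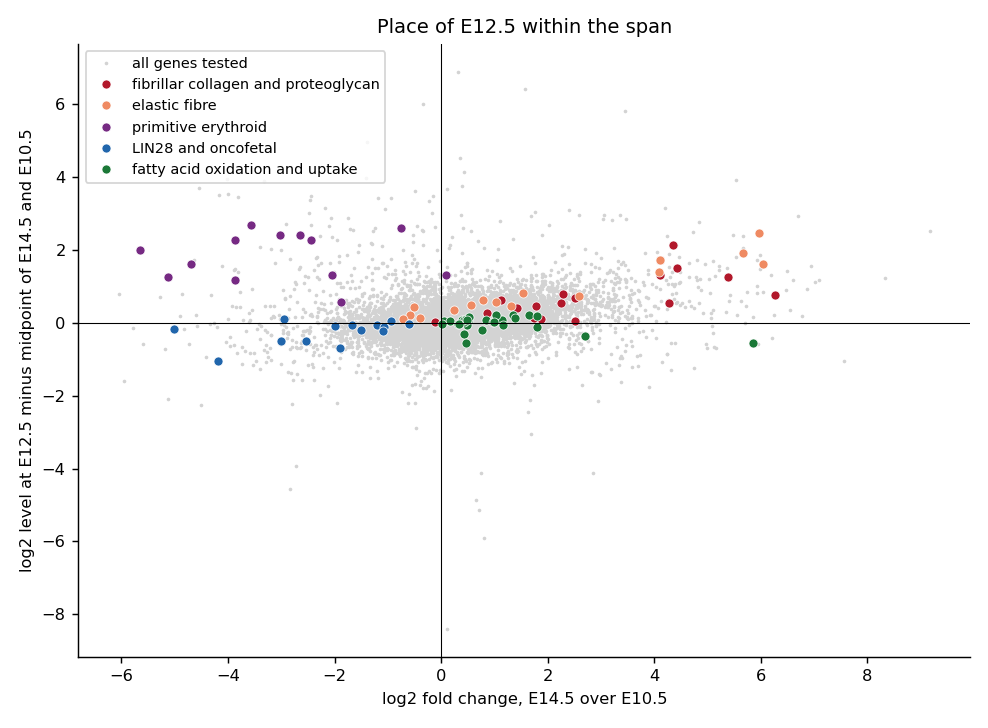
Log2 level at E12.5 minus the midpoint of E14.5 and E10.5 (y axis) against the log2 fold change of E14.5 over E10.5 (x axis) for all 18885 genes tested, in grey, with members of 5 lists in colour. Elastic fibre and collagen genes lie mostly to the right and above 0 (13 of 16 and 12 of 19 called above), and primitive erythroid genes mostly to the left and above 0 (11 of 13).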

How the data were processed

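RNA of whole hearts was sequenced by the authors, who deposited raw counts per Ensembl gene for each library, 49315 identifiers in each. Per the submitters' processing notes, Trimmomatic 0.36, STAR 2.5.2b and featureCounts of Subread 1.5.2 were used with GRCm38. The sources used here give neither the strand setting nor the annotation, so overlapping and antisense genes cannot be told apart. GENCODE M21 gave symbols for 49056 identifiers, and counts without a symbol were 0.0115 to 0.0169% of a library.

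Counts of all 18 libraries were fitted in edgeR 4.0.16 (R 4.3.3) with a quasi-likelihood model of stage, TMM scaling and edgeR's filter on low counts. E14.5 was tested against E10.5, and E12.5 against their midpoint, with Benjamini-Hochberg adjustment over 18885 genes and a threshold of 0.05. Levels are CPM on TMM-scaled totals, except the activated macrophage-type sum and Gh, which use plain totals. Library totals of 30744015 to 44802875 counts set the precision. On simulated counts with 50 changed genes at each fold, 62% of 1.5-fold, 74% of 2-fold, 96% of 4-fold and 92% of 8-fold changes were recovered over 18637 genes, and 5.26% of calls were false. The changed genes were picked above a minimum level, few genes were changed, and the simulated libraries were independent. These shares therefore do not carry over to the calls in the real libraries. The 9 pairs of replicates within the 2 stages all differed by more than sampling noise, with a chi-square per degree of freedom of 6.06 to 37.9. Within E10.5, replicates 1 and 2 differed by 7.53 and replicates 3 and 4 by 6.06, against 24.5 to 30.2 for pairs across these.

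Named genes are the 12 largest rises and falls and, for each list, its first 4 members, the 3 with the smallest p in the leading direction and up to 2 in the other. This rule gave 311 tested genes, of which 201 are described; some genes are not reported here. The members and lists were chosen with earlier results of these data known. Alternatives were DESeq2 1.42.0, limma 3.58.1 (voom), other scalings and filters, fewer libraries, further terms and leaving out each library.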

Additional observations from a re-analysis of the deposited data

Results flagged for a closer look

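In the 4 E10.5 libraries, 1 value of 7 genes lay far from the other 3 by Dixon's criterion (its gap to the nearest, over the whole range), out of 201 genes looked at, where chance alone flags about 1 in 20. Klf1 had 29.6 CPM in replicate 3, above 20.6 to 21.97 CPM in the others. Hand1 had 55.8 CPM in replicate 4, below 64.5 to 64.9 CPM. Hrc had 139.5 CPM in replicate 3, below 144 to 145 CPM. Slc2a4 had 15.6 CPM in replicate 1, below 16.8 to 16.9 CPM. Mcm5 had 173.0 CPM in replicate 4, below 182 to 184 CPM. Acat2 had 44.962 CPM in replicate 4, above 39.2 to 40.0 CPM. Gpihbp1 had 0.21 CPM in replicate 4, above 0.0884 to 0.106 CPM. For these 7 genes every E10.5 value still lay on the same side of every E14.5 value.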

How the results depend on the processing

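Counts of genes called between E14.5 and E10.5 stayed within 1.5 times the reported ones in all 20 alternatives, and leaving out single libraries gave 8123 to 9092 genes called. For E12.5 against the midpoint, leaving out single libraries gave 1136 to 1512. The count below the midpoint, 298 as reported, was 500 with DESeq2, 567 with library totals only, and 480 with only the stages compared. Standing apart as a term gave 2351 genes called and 655 below. The labels do not say whether replicate numbers pair the libraries. Deviations of same-numbered E14.5 and E10.5 libraries correlated at 0.14, -0.06 and 0.10. With 3 libraries a stage and E12.5 left out, these values cannot decide whether the numbers pair. With a replicate block on replicates 1 to 3, 2467 genes were called against the midpoint, 942 below, and 527 were below in the same libraries without the block, a fit added after seeing the data. Under that block Hbb-bh1 (adjusted p = 0.0617) and Hbb-bs (adjusted p = 0.0538) were no longer called and Nkx2-5 was called (adjusted p = 0.0116, and 0.0435 with the block on all libraries). Foxd3 was not called without E14.5 replicate 3. Myh7, not called, ran from -0.0272 (without E14.5 replicate 2) to 0.147 (without E10.5 replicate 2) with single libraries left out, with -0.00715 without E10.5 replicate 4, and was 0.159 without all libraries that stand apart. The causes of these differences were not tested. Of the values of described genes, 3987 kept direction and side of the threshold, 10 lost the call, 7 gained it and 2 changed sign. Of list medians 856 moved by less than the spread between libraries and 79 by more. Genes near the floor of 3 counts are limited by depth.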

Other observations

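Gene families were described after their values were seen. Some of their members, such as Ddx21, Adamts5 and Ndufb8, also stand in the lists above, so these families are not wholly separate evidence. Of 20 nucleoporins, which form the nuclear pore, 19 were lower at E14.5 and 0 higher, with a median log2 fold change of -0.71. Nup160, of its scaffold, was lower at -0.99 ± 0.09 (adjusted p = 5.43e-08), with 32.1, 30.2 and 27.3 CPM at E14.5, against 60.3, 62.5, 56.6 and 58.4 CPM at E10.5. The 7 CCT chaperonin subunits with a protein-coding entry in the annotation were lower (the complex folds actin and tubulin), with a median of -0.70; Cct3 stood at -0.87 ± 0.06 (adjusted p = 1.79e-09). Of 37 DEAD box helicases 27 were lower and 2 higher. Ddx3y of the Y chromosome varied widely between libraries, at a log2 fold change of -0.62 ± 1.51 (adjusted p = 0.76). Ddx3x of the X chromosome stood at -0.31 ± 0.11 (adjusted p = 0.028). The share of each sex in a library was not tested. ADAMTS proteases, which cut matrix, were higher in 13 of 18 cases and lower in 1, with a median of 1.03; Adamts2, which trims procollagen, stood at 3.31 ± 0.14 (adjusted p = 1.21e-12), with 35.1, 34.2 and 32.5 CPM at E14.5, against 3.89, 4.02, 3.05 and 2.62 CPM at E10.5. Of 20 clustered beta protocadherins, cell surface molecules of neurons, 18 were higher and 0 lower, with a median of 1.52. Their levels were low. Pcdhb22, the highest at both stages, had a mean of 3.44 CPM at E14.5 and 2.12 CPM at E10.5. Pcdhb13, the lowest at E10.5, had 0.463 CPM at E14.5 and 0.0570 CPM at E10.5. They are related copies, and the split of reads between them is uncertain. Of 23 genes named Ndufa or Ndufb, the A and B series named after complex I, 22 were higher, against 12 without E10.5 replicates 1 and 2.

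Some genes, chosen after their values were seen, had their highest or lowest mean level within the span. Slc4a1, the anion exchanger of red cells, had means of 146 CPM at E9.5, 314 CPM at E10.5, 652 CPM at E12.5, 58.1 CPM at E14.5 and 51.0 CPM at E16.5. Kel, a red cell surface protease, had 12.02 CPM at E9.5, 27.6 CPM at E10.5, 95.2 CPM at E12.5, 4.88 CPM at E14.5 and 2.18 CPM at E16.5. Hsd3b6, a steroid dehydrogenase, had 10.47 CPM at E9.5, 19.5 CPM at E10.5, 185 CPM at E12.5, 16.6 CPM at E14.5 and 1.33 CPM at E16.5. Sfrp2, a secreted Wnt modulator, had 2.84 CPM at E9.5, 3.18 CPM at E10.5, 113 CPM at E12.5, 141 CPM at E14.5 and 90.2 CPM at E16.5. Tfrc, the transferrin receptor, had 278 CPM at E9.5, 260.2 CPM at E10.5, 109 CPM at E12.5, 128 CPM at E14.5 and 133 CPM at E16.5. The SD at E12.5 was 231 CPM for Slc4a1, 40.2 CPM for Kel, 56.1 CPM for Hsd3b6, 27.3 CPM for Sfrp2 and 29.4 CPM for Tfrc. Whether E12.5 differed from E14.5 alone was not tested.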
